A study of Mus musculus with 36 samples.

Results

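The Rab genes are the 59 features, of 40205 in the deposited tables, whose mouse gene symbol is Rab followed by a number (30 members) or by a number and a letter (29 members). They code for the Rab small GTPases, and genes for proteins that only interact with Rabs were not members. RNA was sequenced from 36 libraries, 18 of neural stem cells (NSCs) grown as neurospheres and 18 of the extracellular vesicles (EVs) that these cultures released into their medium. The cells came from the dorsal telencephalon, the future cortex, of gestational day 12.5 fetuses whose labels give the genotype WT and the strain C57BL/6J. By the study's methods the mice were the Ai14 line, which carries a fluorescent reporter that needs Cre, and no Cre is named in the labels. Fetuses of each sex were pooled within a pregnancy, and a female and a male culture from 3 pregnancies (sets 3, 4 and 5) gave 6 cultures at passages 7 to 10. Each culture was kept without ethanol, at 120 mg/dL (26 mM) or at 320 mg/dL (70 mM) until day 5, and each sample was made from 4 flasks. The EVs were the ultracentrifuge pellet of medium that had passed a 0.2 µm filter. A culture is therefore a pool of littermates after several passages, and the 3 doses of a culture share their cells.

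Rab GTPases are molecular switches that sit on membranes and recruit other proteins when bound to GTP. Exchange factors load them with GTP, GTPase-activating proteins turn them off, and a prenyl anchor together with GDP dissociation inhibitors moves them between membranes and cytosol. Different Rabs mark different compartments, and several of them act in the release of exosomes, the EVs that form inside multivesicular endosomes. The libraries measured the mRNA of these genes, not the proteins.

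Total counts, in M (mega), ranged from 0.959 to 5.51 M in EVs (median 3.83 M) and from 26.6 to 55.3 M in cells (median 37.8 M), so EV values carry the larger counting error. Values below are CPM, the counts of a gene per M counts of its library after TMM scaling. Of 9 neural stem cell markers, 8 exceeded 1 CPM in cells, and Sox2 had 0 counts in every cell library, for a reason that was not tested. The summed stem cell markers spanned 2950 to 4544 CPM in cells and 550 to 1368 CPM in EVs, and the summed neuronal markers 483 to 1026 CPM and 184 to 346 CPM. Microglial markers summed to at most 0.646 CPM in cells and 10.3 CPM in EVs, and endothelial markers to at most 2.39 and 9.58 CPM. Their part in the Rab results was not tested.

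All 59 genes matched a gene of the GENCODE annotation by symbol, and they lie on 18 chromosomes of GRCm39. Coding sequences of most members were of like length, from 588 to 1167 bases for 58 of them, and Rab44, which codes for a much longer protein, had 2922. A single stretch of coding sequence is shared by nearly all of them. The motif TGGGANACNGCNGGNCANGAN, searched in the reading frame on the coding strand, was present in 49 members and in 65 of 21770 coding sequences in all (0.299%). It codes for part of the switch II region, which senses the GTP-bound state. The following 30-base stretches around it come from 4 pairs of closely related genes and show where reads of a pair can be told apart. The mRNAs of these pairs divided unequally between EVs and cells, as did those of other pairs. Sequences are from GRCm39, 5′ to 3′ on the coding strand, and capitals mark bases that differ from the other gene of the pair.
Rab6a, chr7:100278879-100278908, plus strand: ctgcagctGtgggaTactgcGggTcaGgaA
Rab6b, chr9:103038269-103038298, plus strand: ctgcagctCtgggaCactgcTggGcaAgaG
Rab8a, chr8:72922321-72925102, plus strand, with an intron inside the span: ctGcagatatgggacacggcCggccaggaG
Rab8b, chr9:66768161-66770715, minus strand, with an intron inside the span: ctTcagatatgggacacggcGggccaggaA
Rab11a, chr9:64635539-64635568, minus strand: gcAcagatAtgggacacAgcAggGcaggag
Rab11b, chr17:33968779-33968808, minus strand: gcTcagatCtgggacacTgcTggCcaggag
Rab1a, chr11:20168900-20173104, plus strand, with an intron inside the span: ctAcagatAtgggacacagcAggCcaggaA
Rab1b, chr19:5154744-5154869, minus strand, with an intron inside the span: ctGcagatTtgggacacagcTggTcaggaG

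Rab8a and Rab8b differed at 3 of these 30 bases, Rab6a and Rab6b at 6, and the other pairs at 5. Over their whole coding sequences, the 21 pairs of related members were 66.7% to 77.6% identical, and the longest run of identical bases within a pair was 14 to 38. Reads could also be shared with like sequences elsewhere in the genome, and the reads themselves were not examined. In 8 members more than 5% of the exonic 64-base words occurred again somewhere in the genome, with 33.2% for Rab5b, 20.1% for Rab5a, 16.5% for Rab11b, 11.7% for Rab7, 10.0% for Rab9, 7.4% for Rab34, 6.2% for Rab2a and 5.0% for Rab10. How far this affects the levels of these genes was not tested. Exons of 31 members overlap exons of a gene on the opposite strand, among them Rab9 with Trappc2 and Rab8a with Gm26586. Exons of 6 members, Rab11a, Rab18, Rab26, Rab27a, Rab43 and Rab4b, overlap a gene on the same strand. The libraries were made with a stranded kit, but whether strand was used in the counting is not given in the sources used here.

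The first comparison asked which Rab mRNAs were more or less abundant in EVs than in the cells that released them. Rab mRNAs together made up less of the EV libraries. Their summed level was 635 CPM in the lowest EV library, 1112 CPM at the median and 1428 CPM in the highest (1112 ± 205, SD, n = 18), against 1754, 2033 and 2205 CPM in cells (2010 ± 127, SD, n = 18). The 2 ranges did not overlap. All 59 members had a count in every cell library, and 50 to 59 of them in an EV library. In these bulk libraries, fewer vesicles or cells that hold an mRNA and less of it in each cannot be told apart. By the study's methods, EV RNA and cell RNA were isolated with different kits. Cell RNA had high integrity scores, and for EV RNA this score could not be computed accurately. Kit and RNA integrity thus go along with EV against cell in every comparison of the 2, and their part cannot be told apart.

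After a filter on low counts 54 members were tested, and 45 passed an adjusted p of 0.05 in edgeR, 16 of them higher and 29 lower in EVs. Among all 17758 genes tested 81.8% passed, 38.1% higher and 43.7% lower, so the share of members that passed is near that of all genes. The median log2 fold change was -0.49 for the tested Rab genes and -0.14 for all tested genes, and 34 members lay below and 20 above the median of all. The median of all genes depends on the scaling, and was 0.22 with median-of-ratios factors and -0.65 with library totals. A scaling shifts all genes nearly alike. The gap between the Rab median and that of all genes was -0.35 with TMM and -0.36 with the other 2 scalings. It was -0.07 after thinning every library to the smallest total, -1.22 without the count filter and -1.81 with DESeq2. The last 2 runs tested the same number of genes, 31069, and why the gap moved was not tested. The split of Rab calls moved to 19 higher and 21 lower with median-of-ratios factors, to 22 higher and 21 lower with DESeq2 and to 6 higher and 35 lower with library totals. The background moved too. Of all genes called, 46.6% were higher in the main run, and 56.4%, 72.9% and 35.4% in these runs, in that order. The shares of Rab calls that were higher were 35.6%, 47.5%, 51.2% and 14.6%. Of the 45 calls, 14 were tested and held under every alternative, 13 of them lower, and the higher one was Rab8a. Another 6 held wherever they were tested but did not pass the count filter after thinning, namely Rab15, Rab27a, Rab37, Rab3d and Rab44, which were higher, and Rab32, which was lower. Rab44 also did not pass it in the control libraries alone. Rab37 and Rab44 passed the filter in the main run only with their EV libraries, so their higher calls were in part set by it. Among the tested members 33 differed in the same direction in 6 of 6 cultures (59.7% of all genes), 8 higher and 25 lower (22.3% and 37.4%). For 16 members the EV and cell ranges did not overlap, 2 higher and 14 lower (23% of all genes, 5.64% higher and 17.4% lower). The members that failed the filter were Rab17, Rab19, Rab25, Rab42 and Rab9b, none of which had more than 4 counts in an EV library or more than 0.869 CPM in a cell library.

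**Figure D1:**
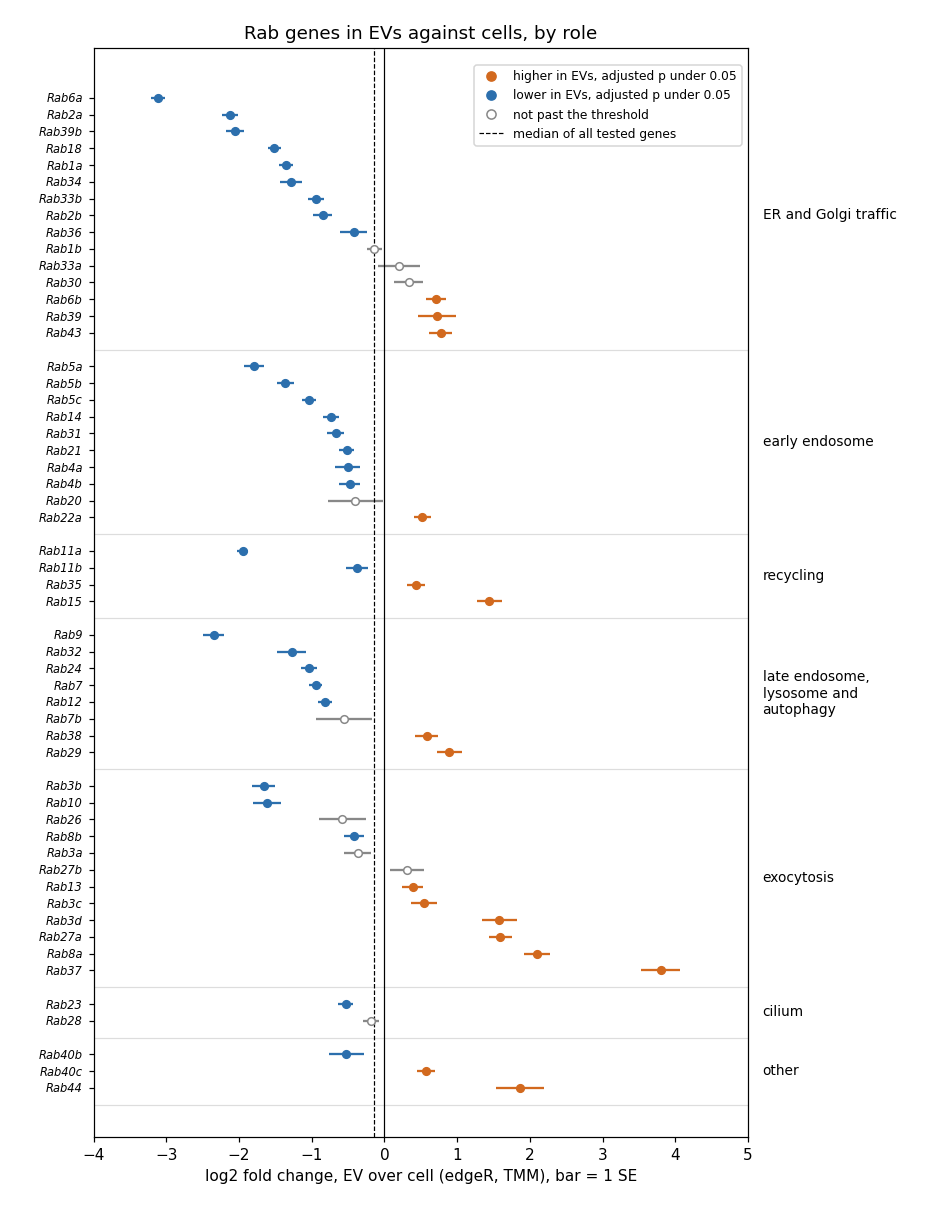
The EV over cell log2 fold change on the x axis, with 1 standard error, for the 54 tested Rab genes on the y axis, grouped by role. Orange marks the 16 genes higher and blue the 29 lower in EVs at an adjusted p under 0.05, and the dashed line is the median of all tested genes at -0.14. Rab6a at -3.12 and Rab37 at 3.80 are the extremes.

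Rabs of the ER and Golgi were mostly lower in EVs. Of 15 tested, 9 were lower, 3 were higher and 3 did not pass, and their median log2 fold change was -0.84. These were 60% lower and 20% higher, against 43.7% and 38.1% of all genes. With library totals 10 were lower and 0 higher, and with DESeq2 8 were lower and 5 higher. With library totals 53.7% of all genes were lower and 29.4% higher, and with DESeq2 72.9% of all called genes were higher. Levels per kilobase here and below use the length of a single annotated transcript per gene, and the ranks depend on that choice. Rab6a, which drives retrograde traffic at the Golgi, was the most abundant Rab mRNA of the cells per kilobase of transcript, at 99.3 ± 10.3 CPM per kilobase (SD, n = 18), and had rank 10 in EVs at 11.45 ± 2.26. Its level was 24.3 CPM in the lowest EV library, 43.6 at the median and 53.3 in the highest (41.5 ± 8.19, SD, n = 18), and 288.6, 356.9 and 434.3 CPM in cells (360.2 ± 37.5, SD, n = 18). Every EV library lay far below every cell library, and the fold change was 8.68-fold lower in EVs (log2 -3.12 ± 0.10, SE; edgeR adjusted p = 2.1e-25). This was 2.98 log2 units below the median of all genes.

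Rab2a, which acts in traffic between ER and Golgi, had 10.9, 25.9 and 35.5 CPM as lowest, median and highest values in EVs (24.9 ± 6.33, SD, n = 18) and 83.1, 104.9 and 131.7 CPM in cells (109.8 ± 15.6, SD, n = 18). The ranges did not overlap, and Rab2a was 4.36-fold lower in EVs (log2 -2.12 ± 0.11, SE; edgeR adjusted p = 2.2e-19). Rab39b is an X-linked gene that neurons use at synapses. Its range was 1.16 to 7.49 CPM in EVs (median 4.28; 4.38 ± 1.47, SD, n = 18) and 14.9 to 25.0 CPM in cells (median 17.8; 18.3 ± 2.38, SD, n = 18). It too was lower in every EV library, by 2.05 ± 0.13 on the log2 scale (SE; edgeR adjusted p = 3.0e-17). Rab6b, the form of Rab6 that is enriched in brain, moved the other way. It had 13.0, 29.7 and 41.5 CPM in EVs (27.6 ± 7.84, SD, n = 18) and 8.29, 16.1 and 28.6 CPM in cells (16.7 ± 5.28, SD, n = 18). The ranges overlapped, although the mean was higher in EVs in 6 of 6 cultures (log2 0.71 ± 0.13, SE; edgeR adjusted p = 1.1e-05), and with library totals the value was 0.26 (edgeR adjusted p = 0.14).

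**Figure D2:**
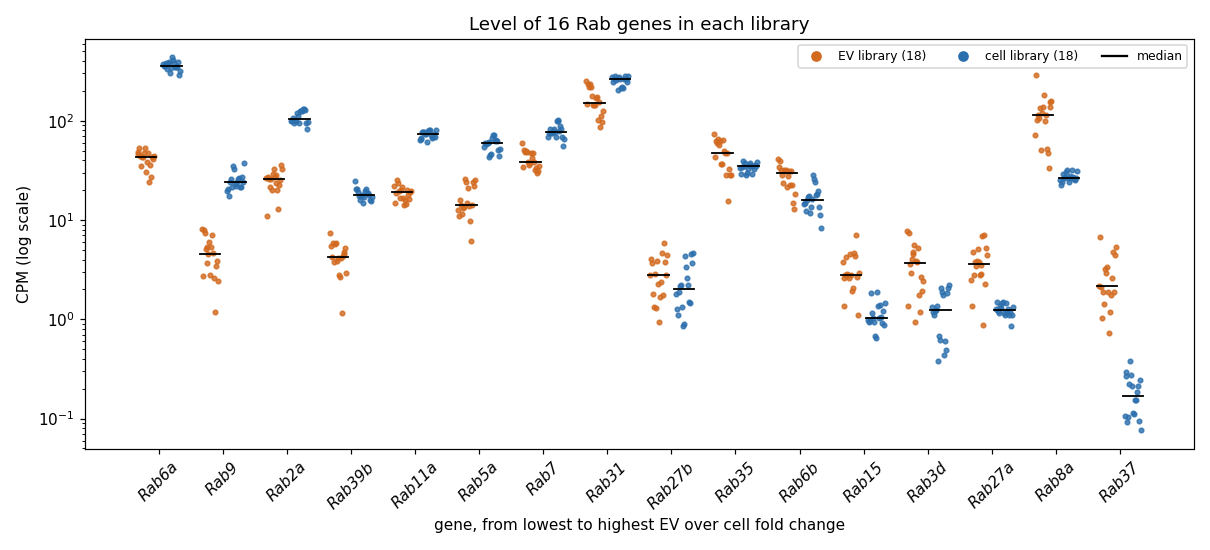
CPM on a logarithmic y axis in each of the 18 EV libraries (orange) and 18 cell libraries (blue), with the median as a line, for 16 Rab genes ordered on the x axis by their EV over cell fold change. Rab6a, Rab9, Rab2a, Rab39b, Rab11a and Rab5a were lower in every EV library than in any cell library, and Rab8a and Rab37 were higher in every EV library.

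Early endosome Rabs were mostly lower as well, with 8 of 10 tested members lower, 1 higher and a median of -0.59, where 43.7% of all genes were lower and 38.1% higher. With median-of-ratios factors 5 of the 10 were lower, since Rab21, Rab4a and Rab4b lost the call, and after thinning 2 of 7 were lower and Rab14, Rab21 and Rab31 had values above 0. Rab5a, which controls the fusion of early endosomes, spanned 6.09 to 25.8 CPM in EVs (median 14.1; 16.3 ± 5.95, SD, n = 18) and 43.3 to 72.5 CPM in cells (median 59.8; 57.5 ± 9.10, SD, n = 18). No EV library reached the lowest cell library, and Rab5a was 3.47-fold lower in EVs (log2 -1.80 ± 0.14, SE; edgeR adjusted p = 1.3e-14). Its relatives Rab5b and Rab5c were also lower, at log2 -1.36 and -1.04. Rab31, which works between the trans-Golgi network and endosomes and has a known role in exosome formation, was the most abundant Rab mRNA of EVs per kilobase, at 45.8 ± 14.4 CPM per kilobase (SD, n = 18), and had rank 2 in cells at 71.4 ± 7.16. Its lowest, median and highest levels were 86.5, 151.1 and 252.1 CPM in EVs (163.2 ± 51.3, SD, n = 18) and 205.3, 263.1 and 282.5 CPM in cells (254.5 ± 25.5, SD, n = 18). The ranges overlapped, and Rab31 was lower in EVs in 6 of 6 cultures (log2 -0.67 ± 0.12, SE; edgeR adjusted p = 3.5e-06), while after thinning all libraries to the smallest total its value was 0.04. Rab22a, a close relative of Rab31, was the only tested early endosome Rab that was called higher, at log2 0.52, and it lost the call under 5 of the alternatives, including library totals.

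Of the 4 tested recycling Rabs 2 were lower and 2 higher, where 43.7% of all genes were lower and 38.1% higher. In each direction 1 call depended on the processing. Rab11a, the main Rab of recycling endosomes, had 14.2, 19.0 and 25.6 CPM in EVs (18.8 ± 3.17, SD, n = 18) and 61.8, 73.8 and 81.4 CPM in cells (72.8 ± 5.98, SD, n = 18). It was lower in every EV library, by 3.87-fold (log2 -1.95 ± 0.08, SE; edgeR adjusted p = 7.6e-23), and this held under every alternative run. Rab11b had a log2 fold change of -0.38 (edgeR adjusted p = 0.020) and was lower in 4 of 6 cultures. It lost the call under 5 alternatives, among them DESeq2 (log2 -0.02; adjusted p = 0.89) and leaving out set 5 (log2 -0.045; edgeR adjusted p = 0.83) or set 4, and it turned to 0.53 after thinning (edgeR adjusted p = 0.0065). Rab35 returns cargo to the plasma membrane and takes part in exosome release. Its level was 15.4 to 73.6 CPM in EVs (median 47.6; 46.7 ± 16.3, SD, n = 18) and 28.4 to 39.0 CPM in cells (median 34.9; 34.0 ± 3.26, SD, n = 18). The EV range enclosed that of the cells, and Rab35 was called higher in EVs (log2 0.44 ± 0.12, SE; edgeR adjusted p = 0.0013), higher in 4 of 6 cultures, although the direction turned with library totals (log2 -0.02) and the call was lost with the replicate block (log2 0.14; edgeR adjusted p = 0.40). Rab15, a recycling Rab found mainly in neural tissue, was at 1.11 to 7.11 CPM in EVs (median 2.81; 3.18 ± 1.42, SD, n = 18) and 0.651 to 1.88 CPM in cells (median 1.03; 1.13 ± 0.342, SD, n = 18). It was 2.72-fold higher in EVs (log2 1.44 ± 0.17, SE; edgeR adjusted p = 1.4e-09), with overlapping ranges and EV counts of 1 to 16.

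Among late endosome, lysosome and autophagy Rabs 5 of 8 tested were lower and 2 were higher, or 62.5% and 25%. Among all genes 43.7% were lower and 38.1% higher. With library totals 6 were lower and 0 higher, against 53.7% and 29.4% of all genes. Rab9, which returns receptors from late endosomes to the Golgi, had 1.19, 4.57 and 8.11 CPM in EVs (4.68 ± 2.03, SD, n = 18) and 17.4, 24.1 and 37.5 CPM in cells (25.0 ± 5.31, SD, n = 18). Every EV library lay below every cell library, and the change was 5.10-fold (log2 -2.35 ± 0.15, SE; edgeR adjusted p = 4.2e-17). Rab7 carries late endosomes to lysosomes. It was at 29.6 to 60.2 CPM in EVs (median 38.5; 41.1 ± 8.50, SD, n = 18) and 56.2 to 102.9 CPM in cells (median 77.8; 79.2 ± 12.5, SD, n = 18), with slightly overlapping ranges, and it was lower in 6 of 6 cultures (log2 -0.95 ± 0.09, SE; edgeR adjusted p = 9.5e-12). Rab32, Rab24 and Rab12 were lower at log2 -1.28, -1.03 and -0.82. Rab29, a partner of the kinase Lrrk2, and Rab38, which with Rab32 serves lysosome-related organelles, were called higher at log2 0.89 and 0.58, and both lost the call with library totals.

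Exocytosis Rabs held the largest increases. Of 12 tested, 6 were higher in EVs, 3 were lower and 3 did not pass, with a median of 0.35 on the log2 scale. These were 50% higher and 25% lower, against 38.1% and 43.7% of all genes. The balance turned with library totals, where 4 were higher and 5 lower with a median of -0.19, and 4 were higher and 5 lower also without a filter, with summed counts and with the replicate block. With library totals the background moved too, to 29.4% of all genes higher and 53.7% lower. In the other 3 runs 57.4%, 50.9% and 51.9% of all called genes were higher. Rab8a carries vesicles from the Golgi and recycling endosomes to the plasma membrane and the cilium. Its level was 33.2 CPM in the lowest EV library, 114.5 at the median and 289.1 in the highest (117.3 ± 60.1, SD, n = 18), against 22.6, 26.6 and 31.8 CPM in cells (27.2 ± 2.66, SD, n = 18). All EV libraries lay above all cell libraries, with a much wider spread, and Rab8a was 4.27-fold higher in EVs (log2 2.09 ± 0.18, SE; edgeR adjusted p = 3.6e-13). Per kilobase it had rank 2 in EVs, at 25.8 ± 13.2 CPM per kilobase (SD, n = 18), and rank 23 in cells. Rab37, known from secretory granules, was at 0.722 to 6.82 CPM in EVs (median 2.14; 2.75 ± 1.65, SD, n = 18) and 0.0766 to 0.382 CPM in cells (median 0.1701; 0.184 ± 0.0864, SD, n = 18). The groups did not overlap and the fold change was the largest of the Rab genes, 13.9-fold (log2 3.80 ± 0.26, SE; edgeR adjusted p = 9.0e-16), but it rested on 2 to 16 counts in an EV library. Rab37 passed the count filter through its EV libraries alone, so a higher EV level was a condition of its being tested.

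Rab27a and Rab27b dock multivesicular endosomes at the plasma membrane and are the Rabs best known for exosome release. Rab27a was at 0.870, 3.64 and 7.11 CPM in EVs (3.75 ± 1.68, SD, n = 18) and 0.858, 1.24 and 1.51 CPM in cells (1.25 ± 0.166, SD, n = 18). Its ranges overlapped, the mean was higher in EVs in 6 of 6 cultures, and the change was 3.02-fold (log2 1.59 ± 0.16, SE; edgeR adjusted p = 8.6e-12). Rab27b was at 0.932, 2.79 and 5.93 CPM in EVs (2.90 ± 1.37, SD, n = 18) and 0.863, 2.03 and 4.61 CPM in cells (2.33 ± 1.26, SD, n = 18). Its difference did not pass (log2 0.31 ± 0.24, SE; edgeR adjusted p = 0.22), and its direction turned with library totals (log2 -0.23) and without the count filter (log2 -0.03). Both genes were thus low in cells and EVs alike.

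The 4 Rab3 genes, which serve regulated secretion, lay between -1.66 and 1.58 on the log2 scale. Rab3d was higher in EVs, at 0.932 to 7.80 CPM (median 3.70; 3.65 ± 2.00, SD, n = 18) against 0.382 to 2.20 CPM in cells (median 1.23; 1.25 ± 0.617, SD, n = 18), with overlapping ranges (log2 1.58 ± 0.24, SE; edgeR adjusted p = 2.2e-07). Rab3c had a log2 fold change of 0.55, which lost its call under 7 alternatives, Rab3a did not pass at -0.37, and Rab3b was lower at -1.66. Rab10, a Rab of polarised exocytosis, was also lower, at -1.62. Of the remaining members Rab44 had a log2 fold change of 1.87, higher in 5 of 6 cultures and on at most 9 counts in an EV library. Its cell libraries, with a median of 0.261 CPM, would not have passed the count filter alone. A higher EV level was thus in part a condition of Rab44 being tested. The cilium Rabs were Rab23, which restrains hedgehog signalling and was lower at -0.53, a call lost with DESeq2 and median-of-ratios factors and turned by thinning, and Rab28, which did not pass at -0.18. Per kilobase Rab28 had rank 3 in EVs, at 22.9 ± 7.54 CPM per kilobase (SD, n = 18), and rank 8 in cells, at 25.8 ± 3.42. These ranks rest on a transcript of 1675 bases, while all annotated exons of Rab28 together hold 13047. The direction of Rab28 turned with DESeq2 (log2 0.18) and median-of-ratios factors (log2 0.17).

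The fold changes followed the level of the genes in cells. All 12 members at 50 CPM or more in cells were lower in EVs, against 76.1% of all genes at that level, and after thinning 8 of the 12 were lower and Rab14, Rab31 and Rab8b had values above 0. Of the 20 members at 10 to 50 CPM 12 were lower and 5 higher, or 60% and 25%, near the 64.5% and 19.8% of all genes at that level, and of the 22 tested members under 10 CPM 5 were lower and 11 higher. Among all tested genes under 10 CPM 56.6% were higher and 21.7% lower. At this level 22 of 27 members and 9378 of 31824 genes in all were tested. Genes lowest in cells could pass the count filter only through high EV levels. The excess of higher calls in this class and the rank correlation are therefore in part set by the filter. The rank correlation of log2 fold change with log2 CPM in cells was -0.61 across the 54 members and -0.61 across all 17758 genes. Both quantities of a gene use the same cell libraries, and genes are not independent replicates. Across the members the fold change had a rank correlation of 0.34 with the GC content of the transcript, 0.01 with its length and -0.05 with the length of its 3′ UTR. Within the middle class of level Rab8a, with 27.2 CPM in cells, had the highest log2 fold change of the 20 members, 2.09. The median of all genes of that class was -0.76 and their highest value 7.29. Among all tested genes of any level Rab8a was at percentile 83.3 of the log2 fold change.

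**Figure D3:**
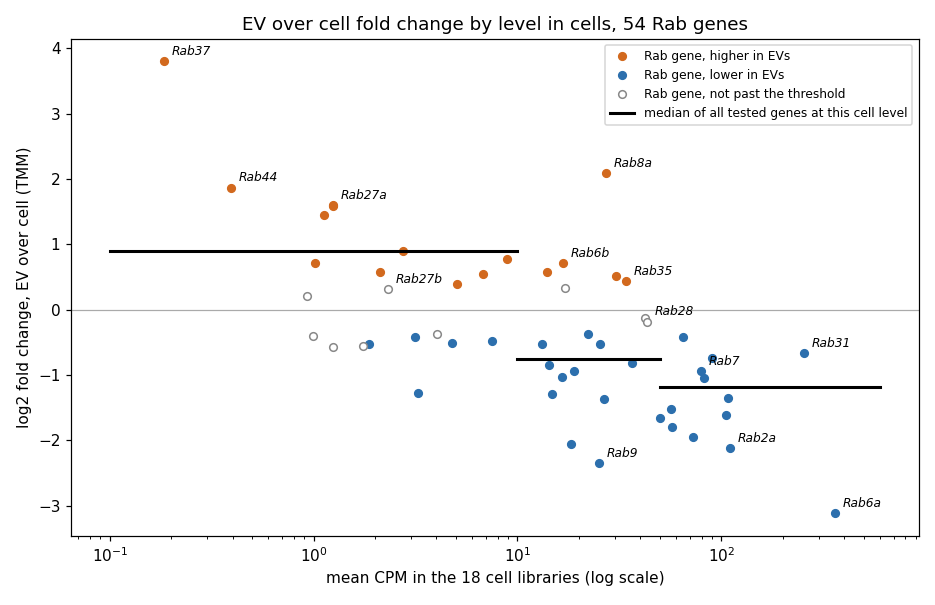
The EV over cell log2 fold change (y axis) against the mean CPM in cells (logarithmic x axis) for the 54 tested Rab genes, with the median of all tested genes at 3 classes of cell level as black lines, at 0.89, -0.76 and -1.18. The 12 Rab genes at 50 CPM or more in cells all lie below 0, and Rab8a lies well above the line of its class.

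Some related genes divided unequally between EVs and cells. For 20 pairs of related members with both genes tested, the log2 ratio of their CPM was computed within each library, which removes the scaling between libraries. In 2 pairs the ranges of this ratio in EVs and cells did not overlap. Pairs of unrelated genes were not compared, so whether such shifts are particular to related genes was not tested. Among single genes 81.8% passed between EVs and cells, and 23% had ranges that did not overlap. Rab6a exceeded Rab6b by a log2 ratio of 3.92 to 5.24 in cells (median 4.47) and of 0.11 to 1.66 in EVs (median 0.46). The geometric mean of their ratio was thus 22.4 in cells and 1.54 in EVs, and all 6 cultures had the lower ratio in EVs. Rab8a was below Rab8b in cells, with a log2 ratio of -1.83 to -0.41 (median -1.30), and above it in most EV libraries, with -0.31 to 2.43 (median 0.98). The mean ratio of Rab8a to Rab8b was 0.430 in cells and 2.24 in EVs, again with 6 of 6 cultures in the same direction. Rab8b itself was lower in EVs by 0.42 on the log2 scale (edgeR adjusted p = 0.0059), a call lost under 5 alternatives and turned to the other direction by thinning. For Rab1a over Rab1b the log2 ratio had a mean of 1.37 ± 0.25 in cells and 0.15 ± 0.30 in EVs (SD, n = 18), and for Rab11a over Rab11b 1.80 ± 0.53 and 0.20 ± 0.47. These ranges overlapped, and in both pairs the ratio was lower in EVs in 6 of 6 cultures. Most tested pairs shifted in a single direction in 6 of 6 cultures. Other pairs with overlapping ranges had larger mean shifts from cells to EVs, among them Rab3b over Rab3d (-3.21) and Rab40b over Rab40c (-2.26). Rab3b over Rab3c shifted by -2.13 and Rab39 over Rab39b by 2.03. Rab40b and Rab39 had no count in some EV libraries. Rab1a, a Rab of ER to Golgi traffic, was lower in EVs at log2 -1.35, while Rab1b had -0.14 and did not pass.

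**Figure D4:**
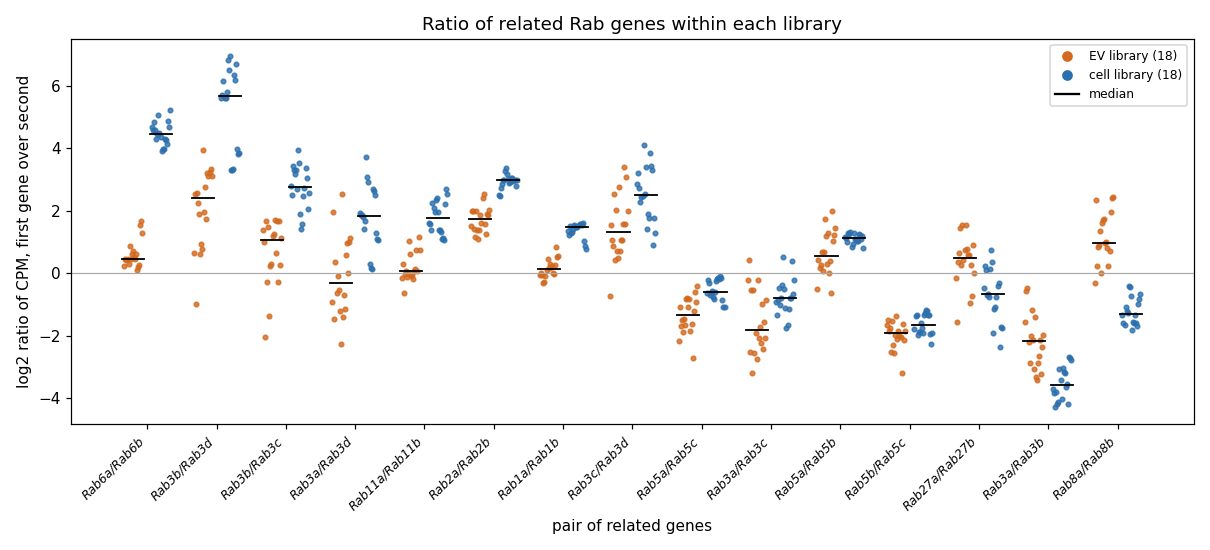
The log2 ratio of the CPM of related Rab genes (y axis) in each of the 18 EV libraries (orange) and 18 cell libraries (blue), with medians as lines, for the 15 tested pairs in which both genes had a count in every EV library. Rab6a over Rab6b at the left and Rab8a over Rab8b at the right are the 2 pairs whose EV and cell ranges do not overlap.

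The genes that act on Rabs were counted in 4 lists. Among all genes tested 43.7% were lower in EVs and 38.1% higher. Of the 13 tested genes for delivery and prenylation 11 were lower in EVs and 0 higher, with a median of -1.43 on the log2 scale, and the Yip family membrane proteins Yipf4 and Yipf5 fell by 2.92 and 2.81 on the log2 scale. Yipf4 had 2.32 to 7.83 CPM in EVs and 22.2 to 34.6 CPM in cells, without overlap. Exchange factors numbered 44 tested, 25 lower and 11 higher, with a median of -0.59. The TRAPP subunit Trappc2, whose exons overlap Rab9 on the opposite strand, was at log2 -2.58 and Dennd10 at -2.19, whereas Dennd11 was at 3.08 and Smcr8, of the C9orf72 complex, at 1.79. Dennd11 spanned 35.5 to 428.7 CPM in EVs and 9.98 to 29.9 CPM in cells.

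GTPase-activating proteins were 19 lower and 15 higher of 39 tested, or 48.7% and 38.5%, near the shares of all genes, with a median of -0.31. Tbc1d8b and Tbc1d12 were lower at -1.85 and -1.81, and Tbc1d16 and Tbc1d13 higher at 3.09 and 1.98. Effectors were 20 lower and 20 higher of 51 tested, or 39.2% each, also near those shares. Their median was that of all genes, -0.14. The kinase Lrrk2, which phosphorylates several Rabs, was lower at -2.001 and the Rab9 effector Rabepk at -1.78. Rab11fip5, which binds Rab11, was higher at 2.85, and Rims3 at 4.37. Rims3 belongs to the RIM family of active zone proteins but lacks the domain through which the larger members bind Rab3. It had 55.5 to 768.8 CPM in EVs and 3.82 to 15.8 CPM in cells.

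Ethanol was examined next, with the culture as a block, since all 3 doses came from each culture. No Rab gene passed the threshold in any of the 6 dose comparisons with edgeR. In EVs 47 members were tested, and 3 at 120 and 5 at 320 mg/dL against control had an unadjusted p under 0.05, as did 3 between the doses. These were 6.38%, 10.6% and 6.38% of the members, against 5.94%, 10.8% and 3.64% of all genes. In cells 58 were tested, and the corresponding numbers were 4, 7 and 4, or 6.90%, 12.1% and 6.90%, against 2.54%, 8.41% and 3.64% of all genes. DESeq2 called 0 members in 5 of the 6 comparisons and 1 member, Rab20, at 320 mg/dL against control in cells. Among all genes edgeR called 0.00758% at 120 mg/dL and 0.0758% at 320 mg/dL in EVs (0.0152% higher, 0.0606% lower) and 0% in the other 4 comparisons. The 2 comparisons with control share the control libraries. The 95% interval of the log2 difference lay within 1 in either direction for 41 and 42 of 47 members in EVs, at 120 and 320 mg/dL against control, and for 56 and 54 of 58 in cells.

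Rab20, an endosomal Rab of phagosome maturation, had the smallest p of these comparisons. Its cell libraries held 0.391, 0.559 and 2.02 CPM without ethanol (lowest, median, highest; 0.784 ± 0.616, SD, n = 6), 0.308, 0.638 and 2.33 CPM at 120 mg/dL (0.872 ± 0.729) and 0.722, 0.880 and 3.16 CPM at 320 mg/dL (1.32 ± 0.935). The groups overlapped, but Rab20 was higher at 320 mg/dL in 6 of 6 cultures. Its log2 difference from control was 0.78 (95% interval 0.48 to 1.07; edgeR adjusted p = 0.125; DESeq2 log2 0.77, adjusted p = 0.021), on 17 to 111 counts a library at 320 mg/dL. In EVs Rab20 had at most 5 counts in a library. Rab30, a Golgi Rab, was higher at 320 mg/dL in cells in 6 of 6 cultures too, by a log2 difference of 0.29 (95% interval 0.12 to 0.46; edgeR adjusted p = 0.37).

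In EVs Rab34, a Golgi Rab that also serves cilium formation, had the smallest p at 120 mg/dL. It was at 2.90, 4.54 and 5.62 CPM without ethanol (lowest, median, highest; 4.35 ± 0.911, SD, n = 6), 4.57, 7.49 and 9.99 CPM at 120 mg/dL (7.16 ± 2.00) and 3.55, 6.58 and 9.39 CPM at 320 mg/dL (6.53 ± 2.19). Most ethanol values lay above the control values, with overlap, on 3 to 31 counts a library. The log2 difference was 0.76 at 120 mg/dL (95% interval 0.33 to 1.19; edgeR adjusted p = 0.71), higher in 5 of 6 cultures, and 0.67 at 320 mg/dL (0.24 to 1.10; edgeR adjusted p = 0.25), higher in 6 of 6. In cells the log2 difference of Rab34 was 0.06 at 120 mg/dL and 0.0040 at 320 mg/dL. Rab10 had a log2 difference of 0.47 at 320 mg/dL in EVs (0.17 to 0.77; edgeR adjusted p = 0.25), higher in 5 of 6 cultures, with 16.9, 26.8 and 51.2 CPM without ethanol and 17.8, 36.9 and 67.7 CPM at this dose.

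The other members with the smallest p in a dose comparison had adjusted p of 0.84 or more in edgeR. Rab11b had a log2 difference of -0.37 in EVs and -0.18 in cells at 120 mg/dL against control. Rab44 had 1.03 at 120 mg/dL in cells, on 5 to 43 counts a library over the 3 doses. Between 320 and 120 mg/dL, Rab13 had 0.67 and Rab18, a Rab of lipid droplets and the ER, had 0.33 in EVs, and Rab20 had 0.65 and Rab6a 0.20 in cells. For the ratio of EV to cell level, 0 of 58 members passed in edgeR at 120 or 320 mg/dL, 0 had an unadjusted p under 0.05, and DESeq2 called 0 (0.00438% and 0% of all genes passed in edgeR). The smallest p belonged to Rab19, which had at most 3 counts in an EV library, at 120 mg/dL and to Rab39 at 320 mg/dL (log2 1.22, 95% interval -0.12 to 2.56). The next were Rab34 at 120 mg/dL, with 0.62, and Rab19 at 320 mg/dL.

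**Figure D5:**
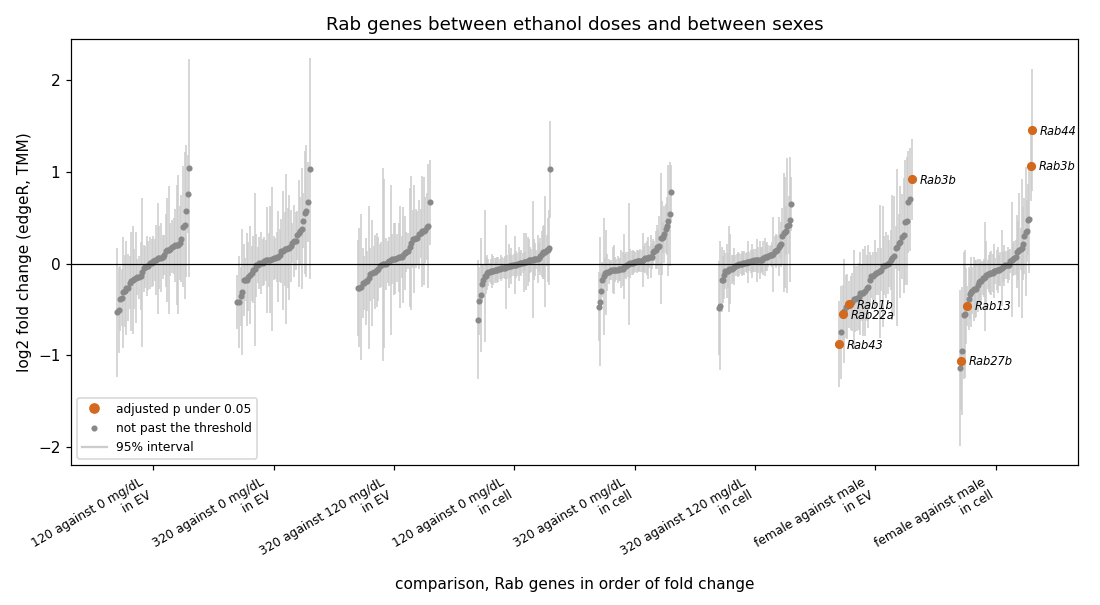
The log2 fold change (y axis) with its 95% interval for each tested Rab gene in 6 comparisons of ethanol doses and 2 of sexes (x axis), in order of size within each. No Rab gene passed the threshold between doses, and the 4 genes of each sex comparison that did are orange and named.

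More of the spread of Rab levels within EVs or within cells went with the pregnancy and the sex than with ethanol. In cells the pregnancy accounted for a median of 29.8% of the variance of log2 CPM over 58 members, sex for 11.2% and dose for 2.53%. Pregnancy was the largest of these for 43 members and dose for 3. In EVs the medians over 47 members were 18.4% for pregnancy, 18.3% for sex and 5.53% for dose, and sex was the largest for 22, pregnancy for 20 and dose for 5. The median SD of log2 CPM was 0.57 in EVs and 0.31 in cells. Each culture gave a library at every dose, so any difference between cultures falls on pregnancy and sex and not on dose. The order of these shares is therefore in part set by the design. Pregnancy and dose also divide the libraries into more groups than sex does, and the share expected without any effect is not given here.

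Sexes were compared over 9 female and 9 male libraries, which take the 3 doses of a culture as independent although only 3 cultures stand behind each sex. In EVs 4 of 46 tested members passed (12% of all genes passed, 7.59% higher and 4.45% lower in females), Rab3b higher in females and Rab43, Rab22a and Rab1b lower. In cells 4 of 58 passed (5.7% of all genes, 3.19% higher and 2.51% lower), Rab3b and Rab44 higher in females and Rab13 and Rab27b lower. These shares are near the background. With the pregnancy as a replicate block the counts rose to 12 in EVs and 10 in cells, with counts summed over the doses both were 0, and without pregnancy set 5 they were 0 and 1.

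Rab3b, which serves regulated secretion, had the clearest sex difference. In cells it was at 47.6, 64.8 and 82.1 CPM in female libraries (lowest, median, highest; 67.6 ± 11.1, SD, n = 9) and 17.96, 29.8 and 54.4 CPM in male libraries (32.1 ± 12.5, SD, n = 9). Female means exceeded male means in 3 of 3 pregnancies, with a log2 difference of 1.07 (95% interval 0.69 to 1.45; edgeR adjusted p = 0.0042). In EVs it was at 10.7, 17.4 and 25.9 CPM in females (18.6 ± 5.07, SD, n = 9) and 3.68, 9.76 and 21.2 CPM in males (11.2 ± 5.19, SD, n = 9). The log2 difference was 0.92 (0.47 to 1.36; edgeR adjusted p = 0.021), higher in females in sets 3 and 5, and in set 4 the means were 14.9 CPM in females and 16.9 CPM in males.

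Rab43, Rab22a and Rab1b had lower EV levels in females in 3 of 3 pregnancies. Rab43, a Golgi Rab, was at 4.91 to 16.7 CPM in female EVs (median 9.27) and 13.6 to 36.5 CPM in male EVs (median 17.5), with a log2 difference of -0.88 (edgeR adjusted p = 0.028). For Rab22a the ranges were 16.6 to 48.5 CPM and 36.4 to 75.8 CPM, with a log2 difference of -0.55 (edgeR adjusted p = 0.034), and for Rab1b 17.8 to 44.1 CPM and 32.5 to 63.7 CPM, with -0.44 (edgeR adjusted p = 0.037). All 3 pairs of ranges overlapped. In cells Rab13, a Rab of cell junctions, was lower in females in 3 of 3 pregnancies (log2 -0.46; edgeR adjusted p = 0.023), at 3.24 to 5.38 CPM against 4.83 to 6.53 CPM. Rab44 was higher in female cells in 2 of 3 pregnancies, by 1.46 on the log2 scale (edgeR adjusted p = 0.019), at 0.214 to 1.41 CPM against 0.115 to 0.324 CPM.

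Of 58 members tested, Rab27b was the only one that passed a test for a change of the sex difference between EVs and cells. Of all genes 1.89% passed that test, 1.06% with a positive and 0.827% with a negative change, so the share of members is near the background. The test was chosen after seeing the data and was not repeated under the alternatives. It takes the doses of a culture as independent, with 3 cultures behind each sex. In cells it was at 0.863, 1.32 and 2.22 CPM in females (1.504 ± 0.526, SD, n = 9) and 1.46, 3.34 and 4.61 CPM in males (3.15 ± 1.26, SD, n = 9), and in EVs at 0.932, 2.77 and 5.93 CPM in females (3.14 ± 1.65) and 1.29, 2.81 and 4.09 CPM in males (2.67 ± 1.07). Male cells thus tended to be higher, while the EV groups covered much the same range, on 1 to 12 counts a library. The log2 difference of females from males was -1.06 in cells (edgeR adjusted p = 0.032) and 0.47 in EVs (edgeR adjusted p = 0.38). Those values come from separate fits of cells and EVs. In a fit of both with matched libraries as a block, the change of this difference from cells to EVs was 1.24 (95% interval 0.60 to 1.88; edgeR adjusted p = 0.044), in the same direction in 3 of 3 pregnancies, although in set 4 the cell means were 2.09 CPM in females and 1.72 CPM in males.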

How the data were processed

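RNA of 18 EV and 18 cell samples had been sequenced by the authors from ribosome-depleted, stranded libraries. Reads were trimmed, deduplicated, aligned to mm39 (GRCm39) with STAR and counted with HTSeq, and raw counts per gene were deposited by the authors as 1 table per sample. The 18 or 9 libraries of a group, counted here as n, come from 6 or 3 cultures, so p-values measure the spread between these libraries.

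Counts were tested in R 4.3.3 with edgeR 4.0.16 (filterByExpr with a minimum count of 10 and a minimum total of 15, TMM, quasi-likelihood F test, Benjamini-Hochberg over all genes tested, threshold 0.05). EVs and cells were compared over all libraries with terms for sex and dose, doses with the culture as a block, the EV:cell ratio as an interaction within matched EV and cell libraries, and sexes within EVs or cells with a term for dose. Each test was tested on simulated data. Log2 CPM used a prior count of 1. Groups came from the labels, and no library was left out. Members were placed on GRCm39 by symbol with GENCODE. Figures were drawn with Python 3.11.15 and matplotlib 3.10.9.

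The members, roles and gene lists were chosen with earlier results of these data known. The text names members known for EV release, the 6 largest EV changes each way that passed with a single direction in 6 of 6 cultures, the members that passed or had the 2 smallest p in each other comparison, the 3 most abundant per kilobase, and the 2 largest changes each way per pathway list. Genes given without full values were added after their values were seen.

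Pairing by culture or pregnancy comes from the labels' pregnancy sets. It was checked as the correlation between deviations from condition means. The median was 0.0633 for matched EV and cell libraries (3 of 18 pairs over 0.1), 0.173 and 0.204 for EV libraries at 120 and 320 mg/dL with their control, 0.638 and 0.558 in cells, and 0.0865 in EVs and 0.329 in cells for females with males of their pregnancy. Alternatives were DESeq2 1.42.0, median-of-ratios factors, library totals, no filter, thinning every library to 959217 counts, leaving out each pregnancy, control libraries alone, counts summed over doses, and adding or removing a replicate block. Leaving out the 6 EV libraries under 2 M counts, and testing whether sex differences changed between EVs and cells, were chosen after seeing the data.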

Additional observations from a re-analysis of the deposited data

Results flagged for a closer look

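Single libraries were compared with the other 5 of their dose and location by Dixon's criterion, over 186 groups of the 31 named Rab genes. In 14 groups 1 library stood apart, where chance alone gives about 1 in 20. The female EV library of set 4 at 320 mg/dL, which is among the shallowest, accounted for 5 of them. It was low for Rab6a (27.3 CPM, the others 43.5 to 53.3), Rab8a (33.2 CPM, the others 102.1 to 156.6), Rab13 (1.19 CPM) and Rab44 (0 CPM), and high for Rab19 (1.19 CPM, a single count, the others 0). The female EV library of set 5 at 120 mg/dL was low for Rab6b (13.0 CPM) and Rab43 (7.21 CPM). Male EV libraries of set 3 held 0 CPM of Rab20 without ethanol and 0 CPM of Rab39 at 120 mg/dL. Among cells, the male library of set 5 without ethanol was low for Rab31 (212 CPM) and high for Rab20 (2.02 CPM), the female library of set 3 at 320 mg/dL was high for Rab37 (0.382 CPM, 9 counts), and the male libraries of set 3 were high for Rab1b without ethanol (60.9 CPM) and at 120 mg/dL (49.3 CPM).

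Rab27b differed between females and males in another way in EVs than in cells, by 1.24 on the log2 scale in the test of that difference. It was 1 of 58 members, near the 1.89% of all genes that passed.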

How the results depend on the processing

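The 45 calls between EVs and cells became 25 after thinning (34 members tested, 13 lower), and the 16 higher calls became 6 with library totals, 9 without a filter and 7 with summed counts. Without 1 pregnancy the calls numbered 37 to 43. With the EV and cell pair as a replicate block 44 were called, 11 higher. At 320 mg/dL in cells DESeq2 called 1 member. The 4 sex calls in EVs became 0 with library totals and with summed counts, 2 after thinning, 12 with the replicate block and 0 to 7 without 1 pregnancy. The 4 in cells became 1 after thinning, 0 with summed counts, 10 with the replicate block and 1 to 8 without 1 pregnancy. With DESeq2 22 calls were higher and 21 lower, so that the majority turned, but the background moved too. Of all genes called, 72.9% were higher with DESeq2 and 46.6% in the main run. The share was 35.4% with library totals, 57.4% without a filter and 50.9% with summed counts. Over all comparisons 116 of 135 recomputed counts stayed within 1.5 times the reported count, and 358 of 410 single-gene values kept their direction and their side of the threshold.

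Between EVs and cells, Rab28 turned with DESeq2 (0.18), median-of-ratios factors (0.17), thinning (0.65) and without set 5 (-0.37 to 0.0073 without 1 pregnancy), Rab27b with library totals (-0.23) and without a filter (-0.0315), Rab35 with library totals (-0.02) and Rab31 after thinning (0.0394). The ratio of Rab39 at 320 mg/dL turned after thinning (-0.63). The cause was not tested. Depth limited which members could be tested, since 34 were tested after thinning against 54 before.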
